A study of Saccharomyces cerevisiae with 8 samples.

Results

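The genes described here encode proteins of the yeast mitochondrial ribosome. They were chosen by name, as nuclear protein-coding genes whose symbol is MRPL, MRPS, MRP or RSM directly followed by a number, which gave 67 of 6002 genes (34 MRPL, 9 MRPS, 13 MRP and 11 RSM). The rule itself uses no measured value. The gene table gave 65 of them a uniform ribosomal protein name, 38 of the large subunit and 27 of the small subunit, so the symbols and the annotation agreed for all but 2. The exceptions were MRP8, once taken for a mitochondrial ribosomal protein, and RSM22, a methyltransferase-like protein linked to the small subunit. Both were kept, since the rule holds for them, and neither had a peak before its start codon in any list.

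Rap1 ChIP-seq was performed on Saccharomyces cerevisiae cultures kept for 14 d or grown for 16 h, to compare where Rap1 binds in chronologically aged and young cultures. There were 2 biological repeats of the Rap1 immunoprecipitation at each time, and a matched input library of chromatin without antibody for each, used only in peak calling. All cultures were of strain JDY86, a MATa strain with auxotrophic alleles at HIS3, LEU2, TRP1, URA3 and MET15 that the study's methods give as the parent of a histone mutant library, so both times share this background. Its hht1-hhf1 histone gene pair is replaced by NatMX4 and its hht2-hhf2 pair by a synthetic H3-H4 cassette with URA3. The listed genotype also holds can1::MFA1pr-HIS3 and an allele printed as K2Δ0, so HIS3 and URA3 are each present as a marker. Cells were grown in rich medium (YPD) and cross-linked with formaldehyde as bulk cultures, so that quiescent and non-quiescent cells were not separated.

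The mitochondrial ribosome translates the few proteins encoded by mitochondrial DNA, most of which are subunits of the respiratory chain and of ATP synthase. All of its proteins but Var1 are encoded in the nucleus, made on cytosolic ribosomes and imported. Rap1 is a DNA-binding protein of telomeres, of the silent mating-type loci and of many strong promoters, above all those of the cytosolic ribosomal protein genes, so the nuclear genes of both ribosomes can be set side by side.

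The number of nuclear peaks was 95 and 564 in 14 d repeats 1 and 2, against 84 and 480 in 16 h repeats 1 and 2. The genome background pileup, the number of fragments expected at a site without enrichment and here a relative measure of depth, was 1.71 and 11.7 at 14 d and 0.414 and 8.87 at 16 h. Repeat 2 was 6.88 times deeper than repeat 1 at 14 d and 21.4 times deeper at 16 h. The repeats of a time thus differed more in depth than the times did. A peak missing from a repeat 1 list does not show that the site was free of Rap1. Whether depth is the reason for such a missing peak was not tested.

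Rap1 peaks were rare at the mitochondrial ribosomal protein genes. A gene was counted when a peak overlapped the 500 bp before its start codon by at least 1 bp, and such a peak is called a promoter peak here. At 14 d, 1 of 67 genes had a promoter peak in repeat 1 (1.49%, exact 95% binomial interval 0.0378 to 8.04%), where 1.68% of all nuclear genes had one. In 14 d repeat 2 the number was 4 of 67 (5.97%, 1.65 to 14.6%), beside 11.4% of all genes. At 16 h, 1 gene in repeat 1 (1.49%, beside 1.2% of all genes) and 4 genes in repeat 2 (5.97%, beside 9.18%) had a promoter peak, with the same intervals as at 14 d. The remaining 63 genes had a promoter peak in no list.

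The share at the mitochondrial ribosomal protein genes was lower than at the 5935 other nuclear genes in the deep repeat 2 lists. The difference was -5.52 percentage points in 14 d repeat 2, from 4 of 67 genes and 682 of 5935 other genes (11.5%). In 16 h repeat 2 it was -3.25 points, with 547 of the other genes bearing a peak (9.22%). At the share of the other genes, 7.70 and 6.18 of the 67 genes would have had a promoter peak in the 14 d and 16 h repeat 2 lists, where 4 had one. In repeat 1 the differences were -0.192 points at 14 d and 0.296 points at 16 h, so they did not share a sign. A single gene is worth 1.49 points in this set, and the share of the other genes lay inside the interval of the mitochondrial ribosomal protein genes in all 4 lists. These shares were not tested against each other, since genes of a library are not replicates of a culture.

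The genes of the cytosolic ribosome stood at the other end. Of 137 cytosolic ribosomal protein genes, 124 (90.5%, 84.3 to 94.9%) had a promoter peak in 14 d repeat 2 and 121 (88.3%, 81.7 to 93.2%) in 16 h repeat 2. These intervals do not meet that of the mitochondrial ribosomal protein genes in the same lists, 1.65 to 14.6%. In the shallow repeat 1 lists the cytosolic genes had 13 (9.49%, 5.15 to 15.7%) at 14 d and 25 (18.2%, 12.2 to 25.7%) at 16 h. The mitochondrial interval there was 0.0378 to 8.04%, which the cytosolic interval met at 14 d but not at 16 h. These intervals cover counting error only, and the shares were not tested against each other. Ribosome assembly genes, taken as those named NOP, UTP or RRP with a number, were close to the mitochondrial set, with 3 of 53 (5.66%) in 14 d repeat 2, 2 of 53 (3.77%) in 16 h repeat 2 and none in either repeat 1. Part of the higher share of the other genes came from the cytosolic ribosomal protein genes. Without them, a comparison chosen after seeing the data, 9.62% of the other genes had a promoter peak in 14 d repeat 2 and 7.35% in 16 h repeat 2.

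**Figure D1:**
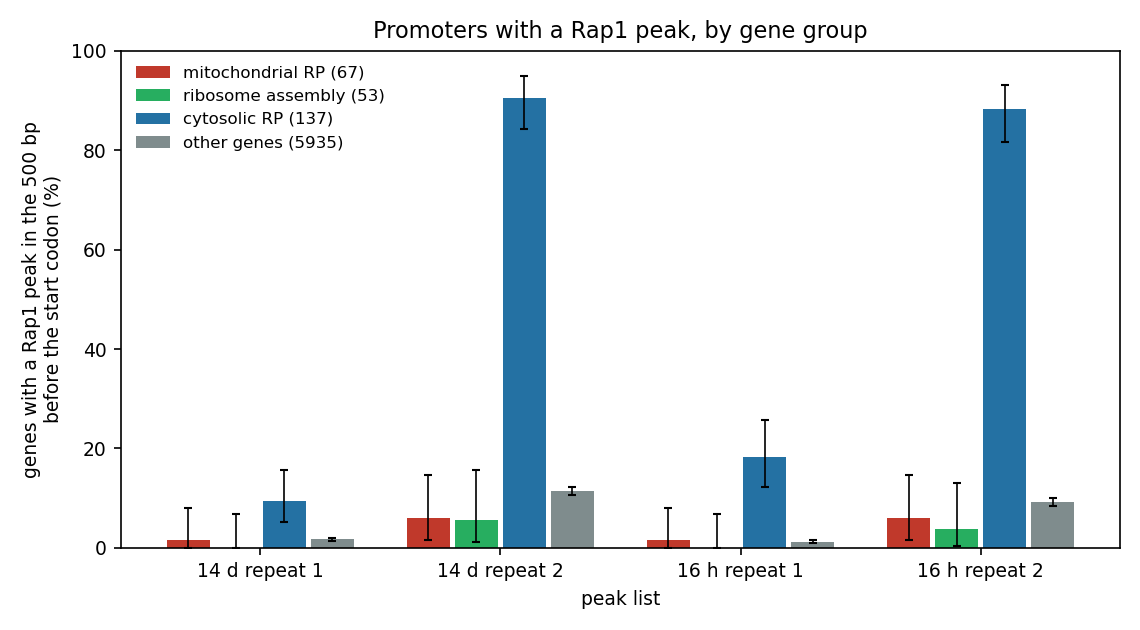
Percent of genes with a Rap1 peak in the 500 bp before the start codon (y axis) in each peak list (x axis) for the 67 mitochondrial ribosomal protein genes, 53 ribosome assembly genes, 137 cytosolic ribosomal protein genes and 5935 other nuclear genes, with exact 95% binomial intervals as error bars. The mitochondrial bars stay at 5.97% or below in every list, while the cytosolic bars reach 90.5% and 88.3% in the repeat 2 lists.

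The share of mitochondrial ribosomal protein genes with a promoter peak did not differ between the times. It was 3.73% ± 3.17 at 14 d and 3.73% ± 3.17 at 16 h (SD, n = 2 each), a difference of 0 points in repeat 1, in repeat 2 and in the mean (two-sided exact permutation test over libraries, p = 1; the smallest p that 2 against 2 libraries allow is 0.333). The genes were also the same. All 4 genes of the 14 d repeat 2 list were the 4 of the 16 h repeat 2 list. The single gene of each repeat 1 list was RSM10 both times. Such overlap was common in the genome. The repeat 2 lists shared 378 promoter peaks, of 482 at 14 d and 399 at 16 h, so the agreement is not particular to this set. For the other genes the mean share was 1.38 points higher at 14 d (0.489 in repeat 1, 2.27 in repeat 2). That is within the spread of the repeats (SD 6.93 at 14 d and 5.67 at 16 h). Of the 4 genes, RSM10 and RSM7 encode small-subunit proteins (2 of 27 genes, 7.41%) and MRPL15 and MRPL49 large-subunit proteins (2 of 38, 5.26%). All 4 are described next, with their positions in the R64 build. A map of the 4 upstream regions shows that the peaks of both times lay at nearly the same place.

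**Figure D2:**
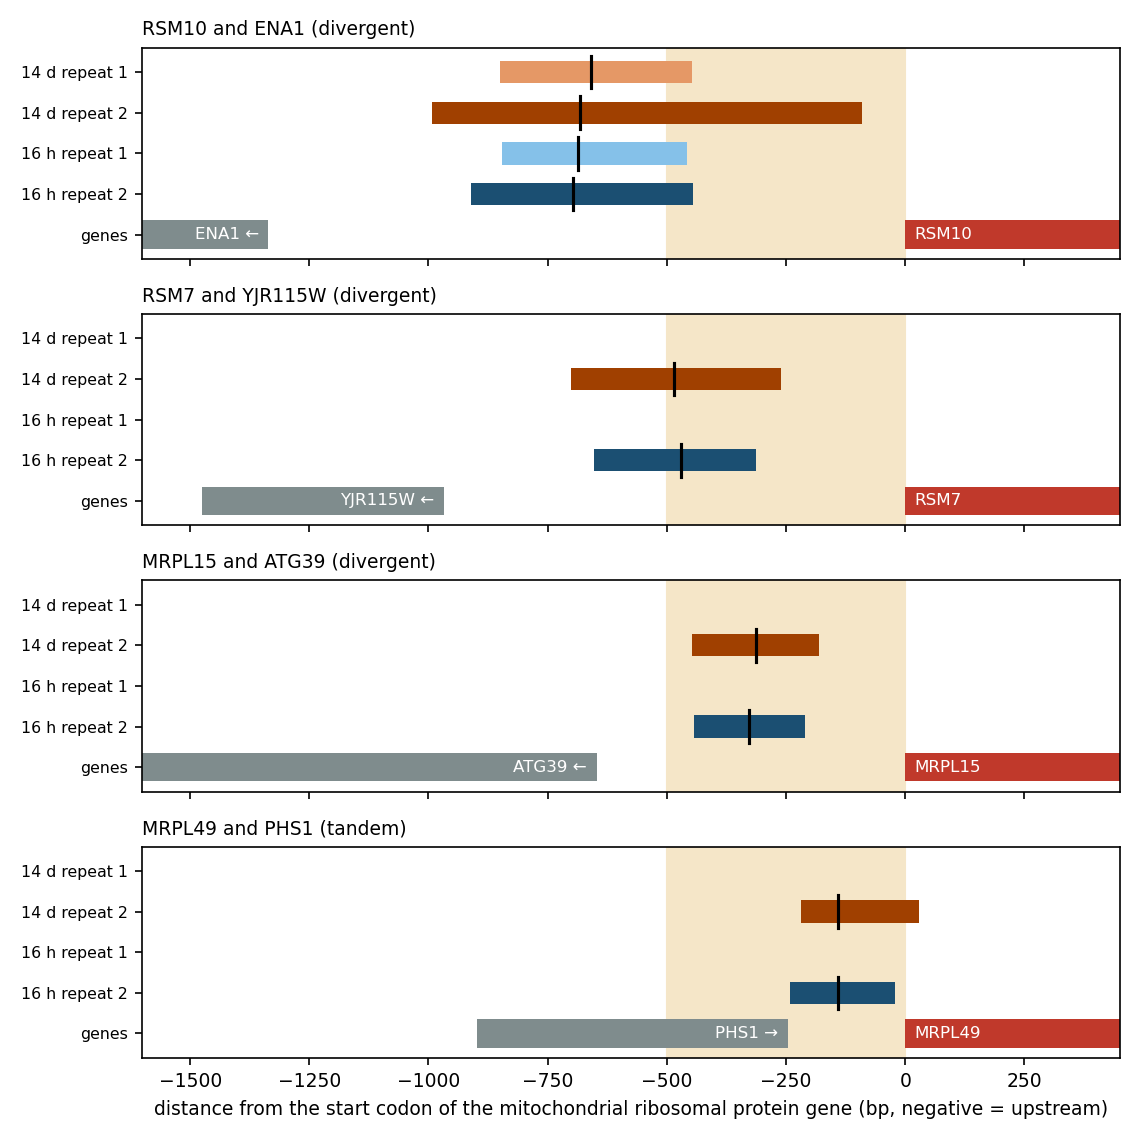
Peaks (coloured bars) and summits (black ticks) of each list around the 4 mitochondrial ribosomal protein genes with a promoter peak, by distance from the start codon in bp, with the 500 bp window shaded, the gene in red and its upstream neighbour in grey (arrow: direction of transcription). At RSM10, RSM7 and MRPL15 the summits lie about midway between 2 divergent start codons, and at MRPL49 they lie 140 bp before its own start codon, with the upstream gene reading in the same direction.

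RSM10 (YDR041W, chromosome IV 539803 to 540414, plus strand) encodes uS10m of the small subunit and was the only gene of the set with a peak in all 4 lists. The peaks spanned 538952 to 539356 and 538810 to 539712 in 14 d repeats 1 and 2, against 538958 to 539346 and 538893 to 539358 in 16 h repeats 1 and 2. Their fold enrichment, the summit pileup over the local background with 1 added to each, was 13.3 and 36.5 at 14 d and 6.12 and 22.6 at 16 h. Each 14 d value was above the 16 h value of the same repeat, but the repeats of a time were farther apart than the times, and 13.3 at 14 d lay below 22.6 at 16 h. The summit pileup was 37 and 660 fragments at 14 d and 8 and 356 fragments at 16 h. The peak ranked 40 of 95 and 38 of 564 nuclear peaks by fold at 14 d, and 55 of 84 and 67 of 480 at 16 h, so it was among the strong peaks of both deep lists. On the log2 scale the fold was 4.46 ± 1.03 at 14 d and 3.55 ± 1.33 at 16 h (SD, n = 2 each), a difference of 0.90 within the spread of the repeats (two-sided exact permutation test over libraries, p = 0.667).

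RSM10 shares its upstream region of 1335 bp with ENA1, a sodium-efflux P-type ATPase of the plasma membrane, which is transcribed in the opposite direction. The summits lay 659 and 682 bp before the start codon of RSM10 at 14 d, against 686 and 696 bp at 16 h. Seen from ENA1 they lay at 677 and 654 bp at 14 d, against 650 and 640 bp at 16 h. They were therefore near the middle of the region and outside the 500 bp window of either gene, and only the flanks of the peaks reached the windows. In the window of RSM10 the overlap was 54 and 410 bp at 14 d and 44 and 56 bp at 16 h. ENA1 is the first of 3 tandem copies with ENA2 and ENA5 (535192 to 538467, 531307 to 534582 and 527422 to 530697). No list had a peak in the window of ENA2 or ENA5, and whether reads from such copies were placed correctly was not tested.

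RSM7 (YJR113C, chromosome X 638232 to 638975, minus strand) encodes uS7m of the small subunit and had a peak in the repeat 2 lists only. The peak spanned 639235 to 639676 in 14 d repeat 2 and 639287 to 639628 in 16 h repeat 2, with a fold enrichment of 5.89 at 14 d and 3.97 at 16 h and a pileup of 74 and 70 fragments. It ranked 339 of 564 peaks at 14 d and 388 of 480 at 16 h, in the lower part of both lists. The summit was 484 bp before RSM7 at 14 d and 471 bp at 16 h, and 483 and 496 bp before the divergent gene YJR115W, whose product is uncharacterised. The 2 start codons are 966 bp apart, and the peak overlapped the windows of both genes.

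MRPL15 (YLR312W-A, chromosome XII 759480 to 760241, plus strand) encodes mL57 of the large subunit. Its peaks lay wholly inside its window, at 759032 to 759299 in 14 d repeat 2 and 759037 to 759270 in 16 h repeat 2. The fold enrichment was 3.53 at 14 d and 4.76 at 16 h, with pileups of 44 and 46 fragments and ranks of 454 of 564 and 352 of 480. The divergent neighbour, ATG39, is a receptor for autophagy of the nucleus, and the region between the genes is 646 bp long. The summit lay 313 bp before MRPL15 and 334 bp before ATG39 at 14 d, against 327 bp and 320 bp at 16 h.

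MRPL49 (YJL096W, chromosome X 246490 to 246975, plus strand) encodes bL21m of the large subunit and was the only one of the 4 without a divergent neighbour. The gene upstream, PHS1, an enzyme of very long chain fatty acid synthesis, ends 245 bp away and reads in the same direction. The peak was at 246271 to 246519 in 14 d repeat 2 and 246249 to 246468 in 16 h repeat 2, with the summit at 246350, 140 bp before the start codon, at both times. It overlapped the window of no other gene. It was also the weakest of the 4 peaks in both lists, with a fold enrichment of 3.22 at 14 d and 3.75 at 16 h, pileups of 40 and 36 fragments, −log10 q of 8.83 and 9.73, and ranks of 481 of 564 and 402 of 480. The local background there equalled the genome background in both lists.

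Apart from RSM10, the promoter peaks of the set were weak ones. The median fold of all promoter peaks was 11.1 and 8.70 in 14 d repeats 1 and 2, against 6.36 and 8.11 in 16 h repeats 1 and 2. RSM7, MRPL15 and MRPL49 were below it in both repeat 2 lists, and RSM10 was above it in every list but 16 h repeat 1. The peaks at cytosolic ribosomal protein genes had a median fold of 18.5 in 14 d repeat 2 and 15.7 in 16 h repeat 2, above all peaks of the set but that of RSM10. In the repeat 1 lists the cytosolic median was 5.91 at 14 d and 5.89 at 16 h, below the median of all promoter peaks and below the RSM10 peak.

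**Figure D3:**
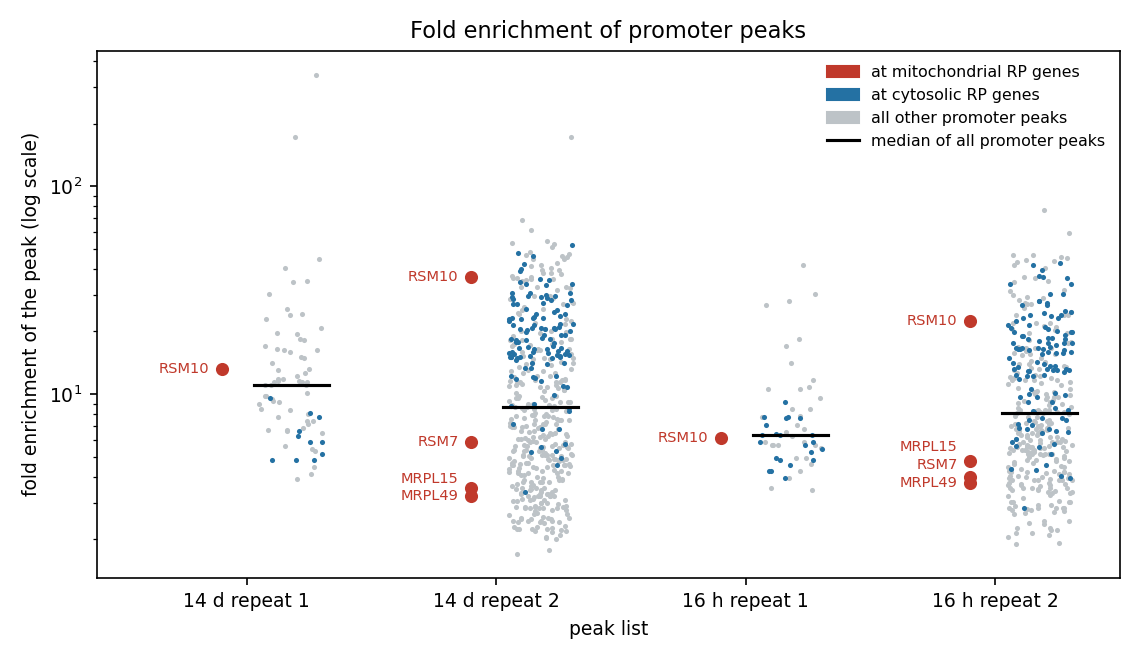
Fold enrichment (y axis, log scale) of the promoter peaks of each list (x axis), with peaks at mitochondrial ribosomal protein genes in red and named, peaks at cytosolic ribosomal protein genes in blue, other promoter peaks in grey and the median of all promoter peaks as a black line. RSM10 reaches 36.5 in 14 d repeat 2 and 22.6 in 16 h repeat 2, and the other named genes lie below the medians of 8.70 and 8.11.

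Between times, the named peaks moved in different directions within repeat 2. The log2 fold at 14 d minus that at 16 h was 0.69 for RSM10, 0.57 for RSM7, -0.22 for MRPL49 and -0.43 for MRPL15. Over the 378 promoter peaks shared by these lists the median was 0.33, with the middle 50% between -0.08 and 0.69, so MRPL49 and MRPL15 lay below that range and RSM10 at its upper edge. In repeat 1, RSM10 differed by 1.12 and the 32 shared promoter peaks by a median of 0.59. Fold moves with depth and local background. As log2 of the pileup over the genome background, the differences were 0.17 and 0.49 for RSM10 in repeats 1 and 2. They were -0.32 for RSM7, -0.252 for MRPL49 and -0.47 for MRPL15 in repeat 2, so that RSM7 changed sign. The shared promoter peaks had a median of -0.61 in repeat 1 (middle 50% -1.27 to 0.18) and 0.15 in repeat 2 (-0.247 to 0.512). RSM10 lay inside both ranges, RSM7 and MRPL15 lay below that of repeat 2, and MRPL49 lay at its lower edge. The peaks of RSM7, MRPL49 and MRPL15 were listed once per time, and their differences have no replicate check.

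A divergent neighbour stood beside most of these peaks. In each repeat 2 list, 3 of the 4 genes shared their peak with the window of a divergent gene, as did RSM10 in both repeat 1 lists. Among the other genes with a promoter peak, 313 of 682 (45.9%) did so in 14 d repeat 2 and 255 of 547 (46.6%) in 16 h repeat 2. In the 8 peaks at the 3 divergent pairs, the distances from the summit to the 2 start codons differed by 1 to 56 bp, and the nearer gene was not always the same one. The summit was nearer to RSM10 than to ENA1 in 14 d repeat 1 and nearer to ENA1 in the other 3 lists. It was nearer to ATG39 than to MRPL15 at 16 h and nearer to MRPL15 at 14 d. At RSM7 it was 1 bp nearer to YJR115W at 14 d and 25 bp nearer to RSM7 at 16 h. The positions thus do not assign these peaks to either gene, and which gene each serves was not tested. MRPL49 is the only one of the 4 whose upstream neighbour is not divergent.

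Divergent arrangement alone was common in the set. The nearest upstream gene was divergent for 38 of 67 genes (56.7%) and for 51.9% of the other genes. The upstream regions of the set were shorter. The median distance to the next gene upstream was 312 bp for the mitochondrial ribosomal protein genes, 450 bp for the other genes and 634 bp for the cytosolic ribosomal protein genes. It was under 500 bp for 52 of 67 genes (77.6%) and for 55.9% of the other genes. For such genes the 500 bp window reaches into the neighbour.

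The share with a promoter peak moved with that length. Of the 52 genes with less than 500 bp upstream, 1 (MRPL49; 1.92%) had a promoter peak in each repeat 2 list, beside 5.85% of 3316 other genes at 14 d and 4.76% at 16 h. Of the 15 genes with 500 bp or more, 3 (20.0%, exact 95% binomial interval 4.33 to 48.1%) did in each repeat 2 list, beside 18.6% of 2610 other genes at 14 d and 14.8% at 16 h. The other 12 genes with a long upstream region had no promoter peak in any list. At the share of other genes of like orientation and length class, a comparison chosen after seeing the data, 5.89 of the 67 genes would have had a peak in 14 d repeat 2 and 4.78 in 16 h repeat 2. With the cytosolic ribosomal protein genes taken out as well, these numbers were 4.96 and 3.86, where 4 genes had one. The difference from the other genes in the repeat 2 lists was thus smaller between genes of like arrangement.

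**Figure D4:**
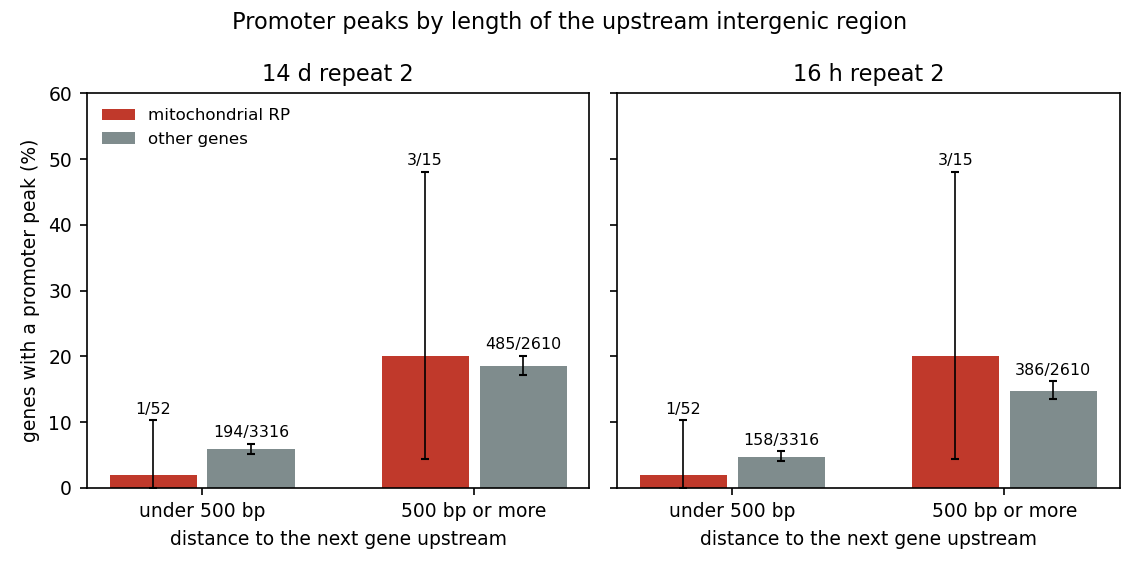
Percent of genes with a promoter peak (y axis) in the repeat 2 lists by the distance to the next gene upstream (x axis), for mitochondrial ribosomal protein genes (red) and other genes (grey), with exact 95% binomial intervals and the counts above the bars. Mitochondrial genes with under 500 bp upstream are at 1.92% in both lists, and those with 500 bp or more at 20.0%, with wide intervals because there are only 15 of them.

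For the genes without a promoter peak, the nearest peak was mostly far away. Over all 67 genes the median distance from the start codon to the nearest summit was 10157 bp in 14 d repeat 2 and 10171 bp in 16 h repeat 2, against 7711 and 8318 bp for the other genes and 347 and 344 bp for the cytosolic ribosomal protein genes. Over the 63 genes with no promoter peak it was 10240 bp at 14 d and 10355 bp at 16 h. The farthest was MRPL37, at 43661 bp in 14 d repeat 2 and 43683 bp in 16 h repeat 2. A summit lay within 5000 bp of 23 genes (34.3%) in 14 d repeat 2 and of 20 genes (29.9%) in 16 h repeat 2, beside 38.1% and 35.2% of the other genes. The set is spread over 14 of the 16 nuclear chromosomes, with 12 genes on IV and none on I or VI. None lies within 20 kb of a chromosome end, where the telomeric binding of Rap1 is found. The closest is 42799 bp from an end, where the end of a chromosome was taken as the end of its last gene.

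**Figure D5:**
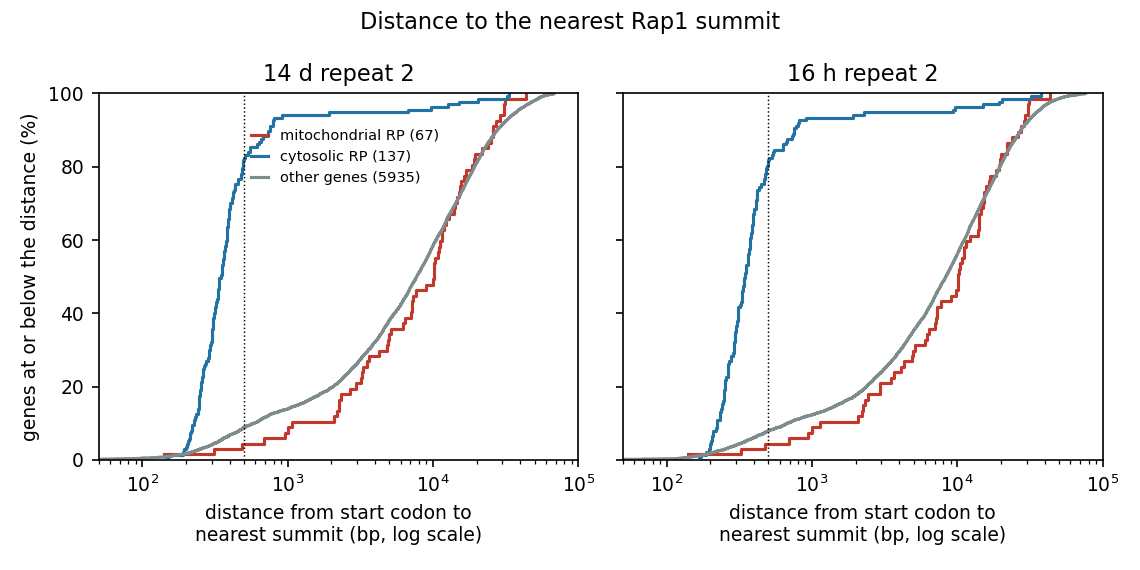
Cumulative percent of genes (y axis) whose nearest Rap1 summit lies at or below a given distance from the start codon (x axis, bp, log scale) in the repeat 2 lists, with a dotted line at 500 bp. The red line of the 67 mitochondrial ribosomal protein genes lies below the grey line of other genes at 500 bp and reaches its median later (10157 against 7711 bp at 14 d), while the blue line of the cytosolic genes has its median at 347 bp at 14 d and 344 bp at 16 h.

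Only MRP13, a small-subunit protein gene, gained a peak when the window was widened to 1000 bp. Its upstream gene, RPL11B, encodes a cytosolic large-subunit protein, reads in the same direction and ends 240 bp away. The summit was 1008 bp before MRP13 but 243 bp before RPL11B in 14 d repeat 2, against 1001 and 236 bp in 16 h repeat 2, with a fold of 20.8 at 14 d and 14.3 at 16 h. The peak lay in the window of RPL11B in both lists.

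In addition, 4 other genes of the set had a cytosolic ribosomal protein gene close by. RSM27 lies beside RPS0A, RSM22 beside RPS27A, MRPL24 beside RPL36A and MRPL22 beside RPS3. In all 5 pairs, that of MRP13 included, the cytosolic gene had a promoter peak in both repeat 2 lists and the mitochondrial one in none. Most genes of the 2 sets did the same. Of all 137 cytosolic genes, 124 had a promoter peak in 14 d repeat 2 and 121 in 16 h repeat 2. Of the 67 mitochondrial ones, 63 had none in any list, so the pattern is not particular to these pairs. The distance to the nearest summit at 14 d and 16 h was 2090 and 2081 bp for RSM27, against 490 and 481 bp for RPS0A. It was 2938 and 2932 bp for RSM22, against 209 and 203 bp for RPS27A, and 2238 and 2225 bp for MRPL22, against 303 and 290 bp for RPS3. MRPL24 had the closest summit of any gene of the set without a promoter peak, at 963 bp in 14 d repeat 2 and 937 bp in 16 h repeat 2. That summit lay on the far side of its start codon, 146 and 172 bp from the start codon of RPL36A.

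Other genes of mitochondrial translation were counted in 4 gene groups that together hold 52 genes. Of these, 2 (3.85%, exact 95% binomial interval 0.469 to 13.2%) had a promoter peak in 14 d repeat 2, beside 11.4% of all genes, and 3 (5.77%, 1.21 to 15.9%) in 16 h repeat 2, beside 9.18%. Both intervals hold the share of all genes, and neither repeat 1 list had a peak at these genes. No list had a promoter peak at the 13 mitochondrial aminoacyl-tRNA synthetase genes, whose products charge the organelle's tRNAs. The same held for the 17 genes of translational activators, many of which act on single mitochondrial mRNAs. With so few genes the intervals of these counts of 0 reach 24.7% and 19.5%, above the share of all genes in every list. Of the 13 mitochondrial ribosomal proteins with other symbols, YML6 and EHD3 had a peak in both repeat 2 lists. YML6, a large-subunit protein, faces RPS17A, a cytosolic ribosomal protein gene, across 523 bp. Its peak had a fold of 21.1 at 14 d and 17.6 at 16 h and a summit 177 and 184 bp before YML6, against 347 and 340 bp before RPS17A. EHD3 faces KRS1, the cytosolic lysyl-tRNA synthetase gene, across 726 bp. Here the fold was 6.91 at 14 d and 5.47 at 16 h and the summit lay 487 and 475 bp before EHD3, against 240 and 252 bp before KRS1. Of the 9 translation factor genes only TUF1, the mitochondrial elongation factor Tu, had a peak, in 16 h repeat 2 alone, with a fold of 2.84 and a summit 186 bp before the start codon.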

How the data were processed

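Rap1 ChIP-seq of JDY86 cultures at 14 d and 16 h was analysed from 4 deposited peak lists, 1 per ChIP library. The 4 input libraries entered only through peak calling. The authors trimmed paired-end reads with Trim Galore, mapped them with Bowtie2 to the R64 genome and called narrow peaks against a matched input with MACS2 (versions not given in the sources used here). The peak names of 14 d repeat 2 call that list a merge, and whether runs were pooled is not stated. The deposited columns hold positions, the fold enrichment (a ratio of pileup to local background), the −log10 of the p-value and of the q-value, and a score of 10 times the −log10 q. These values move with depth, so they were ranked within a list. Read totals were not used. The summit pileup and local background of each peak were solved from its fold and −log10 p, with a relative tolerance of 0.0001 (found for 100% of peaks). The lowest background of a list is its genome background.

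Genes were placed and named with a RefSeq table (R64 assembly), with the strand read from the systematic name, and positions count from 1. Peaks on mitochondrial DNA were left out of promoter counts. Shares have exact (Clopper-Pearson) 95% binomial intervals, which cover counting error only. Times were compared by a two-sided exact permutation test over the 2 libraries of each time, whose p-values measure only the spread between these libraries. Named are the genes with a promoter peak in any list, those with a peak within 1000 bp only, their upstream genes and the pathway genes with a promoter peak. Genes beside cytosolic ribosomal protein genes, and those at the extremes of distance, were named after their values were seen. The gene set and lists were chosen with earlier results of these data known. Alternatives used only peaks with −log10 q of 5 or more, the 84 peaks of highest fold per list, windows of 250, 1000 bp or clipped at the upstream gene, a summit or 50% overlap rule, other gene sets, leaving out replicates and the replicate block. Among the other gene sets, 1 left out genes whose window meets that of a cytosolic ribosomal protein gene. It removed no gene, so its values could not differ from the main ones. The counting code was tested on simulated data. Python 3.11.15, numpy 2.4.6, scipy 1.17.1 and pandas 2.3.3 were used.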

Additional observations from a re-analysis of the deposited data

Results flagged for a closer look

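On mitochondrial DNA, 14 peaks were listed in 14 d repeat 1, data that the promoter comparisons do not use. They are given because they exceed a fixed limit of 3, which is no test, since peaks over a high local background are not independent counts. Their median fold was 1.98, and the highest was 3.36. That peak spanned mitochondrial positions 48295 to 49067 and overlapped the start of VAR1 (48901 to 50097). VAR1 encodes the mitochondrially encoded protein of the small subunit of the mitochondrial ribosome. The summit, at 48663, lay outside VAR1, 238 bp before its first position. In 16 h repeat 1 there were 3 such peaks, none of them over VAR1, and neither repeat 2 list had any. The local background at the VAR1 peak was 60.2 times the genome background of its list, and its part in the peak was not tested.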

How the results depend on the processing

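Of 103 values recomputed under the alternatives, 85 were labelled the same as the main value and 18 were not. Shares and differences from other genes were judged by the interval of the main share. Counts of shared divergent windows were judged by their ratio to the main count. Differences between times were labelled the same without a check, except where a replicate was left out. The 85 is therefore not a count of values within an error. RSM10 is the only gene with a peak in the repeat 1 lists, and its summit is outside the window. The share in both repeat 1 lists was therefore 0% with a window of 250 bp, with the summit required inside the window and with at least 50% of the peak inside it. With the top 84 peaks of each list, both repeat 2 lists kept RSM10 alone (1.49%). With a window of 250 bp the number of genes whose peak also lay in a divergent window was 1 in each repeat 2 list and 0 in each repeat 1 list, and it was 0 in both repeat 1 lists with the summit rule. The difference from other genes kept its negative sign in both repeat 2 lists under the alternative peak, window and gene-set settings. The exception came from comparing like with like in arrangement and leaving out the cytosolic ribosomal protein genes, where 3.86 genes would have had a peak in 16 h repeat 2 and 4 had one. In 16 h repeat 1 the sign changed (-0.758 with 250 bp, -0.977 with the summit rule). Leaving out 1 replicate moved the difference between times from 0 to between -2.24 and 2.24 points, since the time that kept both repeats was then set against a single one. With mitochondrial ribosomal proteins of other symbols added, 6 of 80 genes (7.50%) had a promoter peak in each repeat 2 list, beside 11.5% of the other genes at 14 d and 9.20% at 16 h, a difference of -3.98 and -1.70 points.

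Under a replicate block on the repeat numbers, the difference between times was 0 points (exact sign-flip permutation, p = 1). Same-numbered repeats deviated together across genes (r = 0.661, a description over genes). Repeat 2 was the deeper library at both times, and genes listed in both repeat 2 lists only raise r with or without pairing. With this, and with only 2 pairs, r cannot decide whether cultures were paired. With 2 libraries per time no alternative could pass the threshold, so these p-values say nothing about stability. A motif search and its alternative were not run, since no genome sequence was used here. The low depth of both repeat 1 libraries limits what an unlisted peak there means.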
